A study of Mus musculus with 49 samples.

Results

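The genes described here make, bind and sense retinoic acid: the synthetic enzyme Aldh1a2, the cellular binding proteins Crabp1 and Crabp2, the retinoic acid receptors Rara, Rarb and Rarg, and the retinoid X receptors Rxra and Rxrb. They are 8 of the 13093 genes in the expression table and were taken by gene symbol, each of which stood on 1 row. Their levels were examined in 49 single cells of the metanephric mesenchyme, the embryonic tissue that gives rise to the nephrons and the stroma of the kidney. All cells came from mouse embryos carrying Tg(Crym-EGFP)82Gsat, a transgene in which Crym regulatory sequence drives a green fluorescent protein, on a mixed background, at 11.5 dpc (Theiler stage 19). The sex is given as both. The fluorescence guided the dissection, which took the mesenchyme around the ureteric bud and a few cells outside the Crym territory. The labels tie no cell to an embryo, and all 49 cells carry the same labels, so together they count as 1 sample. Cells are not replicates, and no test was made. Intervals given with shares of cells are exact (Clopper-Pearson) 95% binomial intervals, which cover counting error only.

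Retinoic acid is made from vitamin A. Retinol is oxidised to retinaldehyde, mainly by Rdh10 in the embryo, and retinaldehyde is oxidised irreversibly to retinoic acid by Aldh1a2 and its relatives. Crabp1 and Crabp2 bind retinoic acid inside the cell; Crabp2 is known to carry it to the nuclear receptors, and Crabp1 is linked to its retention in the cytoplasm and its breakdown. In the nucleus a RAR pairs with an RXR on DNA, and the pair switches from repressing to activating transcription when retinoic acid is bound. In the developing kidney, Aldh1a2 is known from the stroma, and retinoic acid signalling is known to maintain the receptor tyrosine kinase gene Ret in the ureteric bud.

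Rarb is both a receptor and a classical target of retinoic acid, and its promoter is shown because it carries the type of element through which RAR-RXR pairs act. Promoter sequences were taken from RefSeq (GRCm38.p6, a later build than the mm9 of the expression table), from 250 bases before to 50 bases after each start. They were searched on both strands for a pair of receptor motifs in the same direction and separated by 1, 2 or 5 bases. A motif was AGGTCA or a variant of it, namely AGTTCA or else GGGTCA or also GGTTCA. Of the 8 genes, 7 had a promoter in the table, 13 promoters in all, and 1 gene held a match. The Rarb promoter lies at chr14:16575427-16575726 on the minus strand. It is written 5′ to 3′ along the gene, with the direct repeat spaced by 5 bases in capitals:
Rarb promoter: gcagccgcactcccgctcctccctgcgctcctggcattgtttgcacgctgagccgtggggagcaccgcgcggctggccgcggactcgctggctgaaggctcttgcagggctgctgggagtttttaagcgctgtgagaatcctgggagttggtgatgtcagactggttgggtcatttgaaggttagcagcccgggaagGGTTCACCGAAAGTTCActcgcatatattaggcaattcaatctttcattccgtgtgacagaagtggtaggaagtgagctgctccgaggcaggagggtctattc
The match reads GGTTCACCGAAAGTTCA and spans chr14:16575513-16575529, which is 53 to 37 bases before the start. Of all 32851 RefSeq promoters of this length, 32 (0.0974%) held such a repeat spaced by 5 bases, 88 (0.268%) one spaced by 2 and 73 (0.222%) one spaced by 1. A match describes the sequence and is not evidence of binding in these cells.

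The values are RPKM, read counts scaled by gene length and by the size of the library, so levels of different genes can be set side by side. A gene was counted as detected in a cell at 1 RPKM or more. Cells had a median of 5210 genes detected, from 3610 to 6510. Relative depth, read from the spacing of low values, taking the median cell as 1, was between 0.693 and 1.52 in 47 cells, but 0.0346 in cell 3 and 0.0462 in cell 7. In cell 3 the smallest step of Six2 was worth 7.44 RPKM, so that detection there rests on very few reads. Cell 25 held 9 of 11 ureteric bud markers, including Ret at 59.6 RPKM. It also held 10 of 14 stromal markers, with Foxd1 at 51.7 RPKM, so its profile was mixed. Cell 27 held all 8 endothelial markers in the table and both macrophage markers in it.

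Cells were divided by Six2, the transcription factor of self-renewing nephron progenitors, and Foxd1, the transcription factor of stromal progenitors. At 1 RPKM, 18 cells had Six2 only, 15 had Foxd1 only, 9 had both and 7 had neither. The marker lists went with these classes: a median of 9 of 13 nephron progenitor markers was detected in Six2-only cells and 3 in Foxd1-only cells, against 3 and 10 of 14 stromal markers. Cells with both genes held a median of 10 of each list. Six2 is on the first list and Foxd1 on the second, so 1 marker of each is fixed by how the classes were drawn. The class of cell 3 (both genes) rested on 1 step of Six2 and 3 of Foxd1.

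The transcript of the synthetic enzyme was found in most of the cells. Aldh1a2 (gene 19378, mm9 chromosome 9, 71063596 to 71144050) was detected in 31 of 49 cells, or 63.3% (48.3 to 76.6%). Its level ran from 0 through a median of 17.7 to 325 RPKM, the last in cell 22. It was at 0 in 10 cells, between 0 and 1 RPKM in 8, and at 100 RPKM or more in 11. In the detecting cells the median was 51.3 RPKM, with quartiles of 25.6 and 205 RPKM. In a cell of median depth 1 RPKM of Aldh1a2 was about 4.17 of its smallest steps, so the 8 cells with a trace held few reads and may lie on either side of the threshold by counting error.

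The binding proteins differed in breadth. Crabp2 (gene 12904, chromosome 3, 87752615 to 87757294) was detected in all 49 cells (92.7 to 100%), from 1.17 RPKM in cell 36 through a median of 270 to 1042 RPKM in cell 2, and it stood at 100 RPKM or more in 41 cells. Crabp1 (gene 12903, chromosome 9, 54612615 to 54620916) was mostly either abundant or at 0. It was detected in 29 cells, or 59.2% (44.2 to 73.0%), and was at exactly 0 in 19, with only 1 cell between 0 and 1 RPKM. In a cell of median depth 1 RPKM of Crabp1 was about 1.36 of its smallest steps, so few values could fall between 0 and 1. Of the detecting cells 21 stood at 100 RPKM or more and 8 lower, including cells 51, 14 and 7 at 1.16, 6.68 and 15.9 RPKM. In the detecting cells its median was 255 RPKM, with quartiles of 88.2 and 486 RPKM, and the highest value was 875 RPKM in cell 43. The SD of log2(RPKM + 1) over the 49 cells was 4.00 for Crabp1 and 1.65 for Crabp2. Every cell thus held a transcript of at least 1 binding protein, and 20 of the 49 were without detected Crabp1.

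Receptor transcripts were detected in fewer cells and at lower levels. Rarb (gene 218772, chromosome 14, 17263354 to 17651648) was detected in 24 cells, or 49.0% (34.4 to 63.7%), with a median of 19.9 RPKM where detected and a maximum of 121 RPKM in cell 37. A further 22 cells held a trace of it below 1 RPKM, and only 3 were at 0. Rara (gene 19401, chromosome 11, 98799010 to 98836256) was detected in 13 cells, or 26.5% (14.9 to 41.1%), and peaked at 41.2 RPKM in cell 4. Rarg (gene 19411, chromosome 15, 102065371 to 102087914) was detected in 10 cells, or 20.4% (10.2 to 34.3%), and peaked at 17.7 RPKM in cell 49. Rarb was therefore the most often detected of the RARs, and its interval overlapped that of Rara but not that of Rarg.

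Among the partners, Rxrb (gene 20182, chromosome 17, 34168797 to 34175344) was detected in 12 cells, or 24.5% (13.3 to 38.9%), and was highest in cells 6 and 24, at 71.4 and 69.3 RPKM. Rxra (gene 20181, chromosome 2, 27532721 to 27618839) was detected in 5 cells, or 10.2% (3.40 to 22.2%). Its values there were 2.98 RPKM in cell 31, 4.68 in cell 42, 4.75 in cell 18, 12.1 in cell 21 and 26.4 in cell 39. The intervals of the 2 RXR genes overlapped. A transcript at a low level can escape capture in a single cell, so a cell in which a receptor was not detected cannot be taken as lacking it.

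Ordered by their median in the detecting cells, the genes ran Crabp2 at 270 RPKM, Crabp1 at 255, Aldh1a2 at 51.3, Rarb at 19.9, Rxrb at 9.21, Rxra at 4.75, Rara at 3.30 and Rarg at 3.09. The quartile ranges of each neighbouring pair in this order overlapped. The binding proteins and the receptors other than Rarb were well apart: the lower quartile of Crabp1 was 88.2 RPKM, while the upper quartiles of Rxrb, Rara, Rxra and Rarg were 19.9, 15.5, 12.1 and 4.87 RPKM. Because each median leaves out the cells without detection, it describes the level where the transcript was seen and not the tissue.

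**Figure D1:**
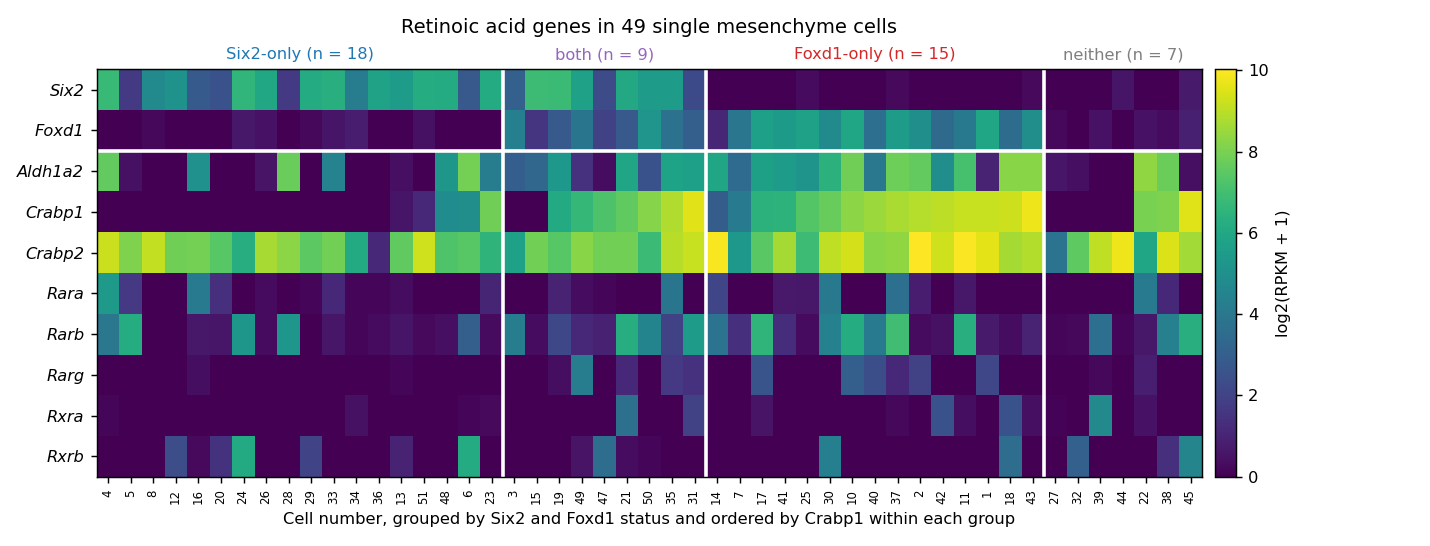
Level of Six2, Foxd1 and the 8 retinoic acid genes in each of the 49 cells, as log2(RPKM + 1) in colour, with cells (columns) grouped by Six2 and Foxd1 status and ordered by Crabp1. Crabp2 is high in nearly every column and lowest in cell 36, Crabp1 is detected in all 15 Foxd1-only cells and below 1 RPKM in 14 of the 18 Six2-only cells, and the receptor rows are mostly dark.

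The question of which cells carry the machinery was then asked by class, first for synthesis. Aldh1a2 was detected in 14 of 15 Foxd1-only cells (93.3%, 68.1 to 99.8%) and in 7 of 18 Six2-only cells (38.9%, 17.3 to 64.3%). Its level in Foxd1-only cells ran from 0.961 through a median of 58.3 to 299 RPKM, and in Six2-only cells from 0 through 0.336 to 244 RPKM. The ranges overlapped, since the Six2-only cells 4, 28 and 6 held 196, 214 and 244 RPKM. The other 4 detecting Six2-only cells lay between 17.7 and 38.8 RPKM. Six2-only cells therefore fell into 7 cells at 17.7 RPKM or more and 11 below 1 RPKM, whereas the only Foxd1-only cell without detection, cell 1, was just under the threshold.

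Cells with both transcription factors had Aldh1a2 in 8 of 9, from 0.257 through a median of 8.84 to 58.9 RPKM, and none reached 100 RPKM. The median was 24.1 RPKM without the shallow cell 3, whose value is 1 step. Of the 7 cells with neither, 2 had it, namely cells 22 and 38 at 325 and 220 RPKM. Both are among the 11 cells at 100 RPKM or more, without detected Six2 or Foxd1. On the log2(RPKM + 1) scale the mean was 5.94 ± 2.04 (SD, n = 15 cells) in Foxd1-only and 2.43 ± 3.14 (SD, n = 18 cells) in Six2-only cells, a difference of 3.51. Of 10246 genes detected in at least 5 cells, 30 (0.293%) differed more in this direction. The size of this difference depended on the scale and the class limits: it was 1.83 with a pseudocount of 10, 5.17 with one of 0.1, and 2.06 with classes drawn at 0.1 RPKM.

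Crabp1 separated the classes further. It was detected in all 15 Foxd1-only cells (78.2 to 100%), from 6.68 RPKM in cell 14 through a median of 367 to 875 RPKM. In Six2-only cells it was detected in 4 of 18 (22.2%, 6.41 to 47.6%), at 1.16 RPKM in cell 51, 28.4 in cell 48, 29.8 in cell 6 and 231 in cell 23, and it was at exactly 0 in 13. The ranges overlapped only through these few cells: 9 of the 15 Foxd1-only cells lay above the highest Six2-only cell. Cells with both factors resembled the Foxd1-only cells, with 7 of 9 detecting it, a median of 148 RPKM and a highest value of 772 RPKM. Among cells with neither, cells 22, 38 and 45 held 255, 274 and 751 RPKM and the other 4 were at 0.

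The mean log2(RPKM + 1) of Crabp1 was 7.73 ± 1.99 (SD, n = 15 cells) in Foxd1-only and 1.08 ± 2.31 (SD, n = 18 cells) in Six2-only cells. The difference of 6.66 was larger in size than that of any other of the 10246 genes. This rank held with a pseudocount of 0.1 and without cells 3 and 7 or cells 25 and 27, and 1 gene exceeded it with a pseudocount of 10. The difference was 9.16 with a pseudocount of 0.1 and 4.08 with one of 10. With classes drawn at 0.1 and 5 RPKM the difference was 5.12 and 6.96, and its rank was not computed there. Without cells 3 and 7, Crabp1 was detected in 14 of 14 Foxd1-only cells and the difference was 6.92. Genes detected per cell had medians of 5232 in Foxd1-only and 4960.5 in Six2-only cells, and their part in these differences was not tested.

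Crabp2 was present in every class. It ran from 1.17 through 208 to 630 RPKM in Six2-only cells and from 39.2 through 468 to 1042 RPKM in Foxd1-only cells. The means differed by 1.23 on the log2(RPKM + 1) scale, against SDs of 1.83 and 1.29, and 6 Foxd1-only cells lay above the highest Six2-only cell. Low values were few: cell 36, a Six2-only cell, stood at 1.17 RPKM, and the cell with endothelial markers, cell 27, at 12.9 RPKM.

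**Figure D2:**
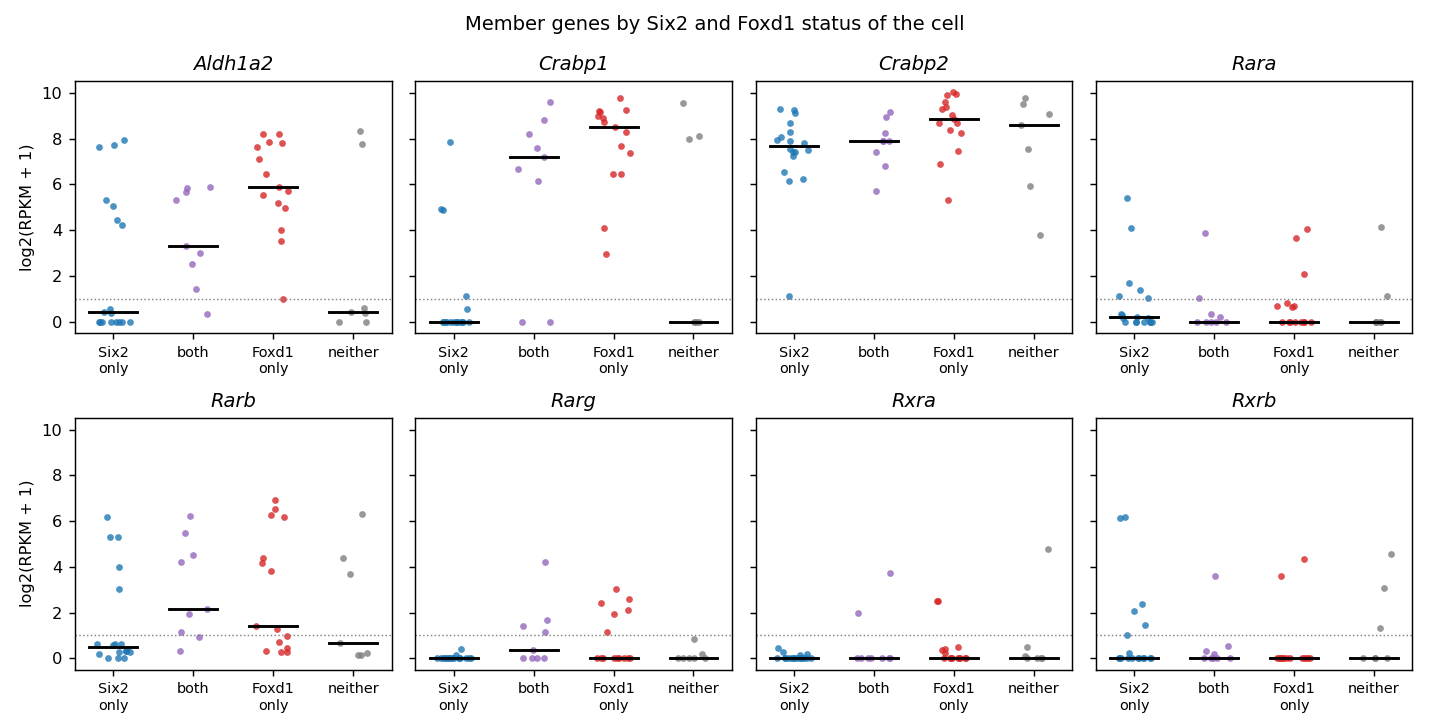
Level of each of the 8 genes, as log2(RPKM + 1), in single cells (points) by Six2 and Foxd1 status, with a bar at the median of the class and a dotted line at 1 RPKM. Crabp1 and Aldh1a2 have medians of 367 and 58.3 RPKM in Foxd1-only cells against 0 and 0.336 RPKM in Six2-only cells, while Crabp2 overlaps across all classes.

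Among the receptors, Rarb was detected in 9 of 15 Foxd1-only cells (60.0%, 32.3 to 83.7%), 7 of 9 cells with both factors, 5 of 18 Six2-only cells (27.8%, 9.69 to 53.5%) and 3 of 7 cells with neither. Its median was 1.66 RPKM in Foxd1-only and 0.408 RPKM in Six2-only cells, while its highest values were 121 and 72.4 RPKM. The Foxd1-only median rests on single cells, since it was 7.31 RPKM without the shallow cell 7 and 7.41 RPKM without cell 25. The 5 detecting Six2-only cells held 7.14 (cell 6), 14.8 (cell 4), 38.0 (cell 28), 38.9 (cell 24) and 72.4 RPKM (cell 5). High Rarb was thus found in every class. The mean difference, Foxd1-only over Six2-only, was 1.39 on the log2(RPKM + 1) scale with SDs of 2.62 and 2.14, and it was 0.65 with a pseudocount of 10.

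Rarg, although low, followed Foxd1. All 10 cells that held it also held Foxd1, against 4.90 if detection of the 2 genes were independent. They were 6 of 15 Foxd1-only cells, at 1.20, 2.80, 3.39, 4.34, 5.04 and 7.14 RPKM, and 4 of 9 cells with both factors, at 1.24, 1.69, 2.16 and 17.7 RPKM. In Six2-only cells Rarg was detected in 0 of 18, which allows a share of up to 16.7% by a limit of 3 cells and up to 18.5% by the exact interval, and its highest value there was 0.310 RPKM. The mean difference was 0.85 on the log2(RPKM + 1) scale and 1.89 with a pseudocount of 0.1. With these levels, 1 RPKM of Rarg is about 5.91 of its smallest steps in a cell of median depth.

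Rara and Rxrb did not follow the same order, and Rxra was detected in only 5 cells. Rara was detected in 6 of 18 Six2-only cells, with 41.2 RPKM in cell 4, 16.0 in cell 16 and the other 4 between 1.07 and 2.18 RPKM. In Foxd1-only cells it was detected in 3 of 15, at 3.30 RPKM in cell 14, 11.5 in cell 37 and 15.5 in cell 30. The mean difference was -0.04, or 0.02 without cells 3 and 7, and the detected shares of 33.3% (13.3 to 59.0%) and 20.0% (4.33 to 48.1%) had overlapping intervals. Rxrb was detected in 6 of 18 Six2-only cells, of which cells 24 and 6 were high and the other 4 lay between 1.02 and 4.21 RPKM. It was detected in 2 of 15 Foxd1-only cells, namely cells 18 and 30 at 11.1 and 19.1 RPKM, and its mean difference was -0.55. Rxra was detected in 0 of 18 Six2-only cells, with the same limits of 16.7% and 18.5%. It was detected in 2 Foxd1-only cells, 2 with both factors and 1 with neither, and its mean difference was 0.38.

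Read as a group, 4 of the 8 genes (Aldh1a2, Crabp1, Crabp2 and Rarb) were higher by 1 or more in mean log2(RPKM + 1) in Foxd1-only cells, where 9.88% of the 10246 genes passed this limit. None was higher by 1 or more in Six2-only cells, where 11.1% of genes were. The median difference over the 8 genes was 1.04, and over all 10246 genes it was -0.04. For each of the 8 genes the values of the 2 classes overlapped.

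**Figure D3:**
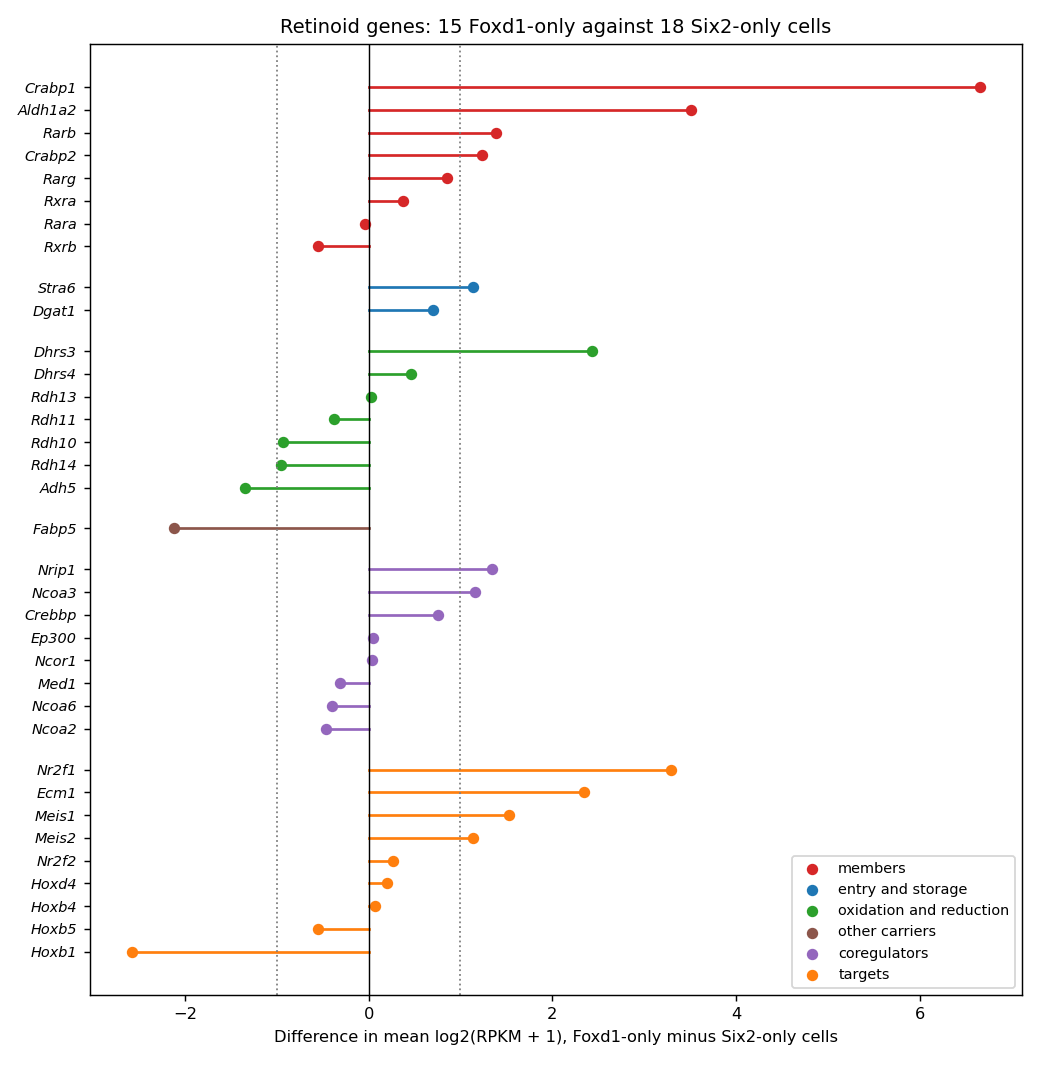
Difference in mean log2(RPKM + 1), 15 Foxd1-only cells minus 18 Six2-only cells, for the 8 genes and for the other retinoid genes reported here that were detected in at least 10 cells, grouped by list and coloured by it. Dotted lines mark differences of -1 and 1. Crabp1 (6.66), Aldh1a2 (3.51) and Nr2f1 (3.29) lie farthest to the right and Hoxb1 (-2.57) farthest to the left.

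The roles were then combined within cells. Aldh1a2 and Crabp1 were detected together in 25 cells, against 18.3 if detection were independent, and their levels had a Spearman correlation of 0.58 over the 49 cells. These 25 comprised 14 Foxd1-only cells, 6 with both factors, 3 Six2-only cells and 2 with neither. Within classes the correlation was 0.32 in Six2-only cells, 0.38 in Foxd1-only cells, 0.36 with both factors and 0.40 with neither. Aldh1a2 without Crabp1 was seen in 6 cells, of which 4 were Six2-only, 2 had both factors and none was Foxd1-only. Crabp1 without Aldh1a2 was seen in 4 cells, 1 of each class. The 14 cells with neither gene detected were 10 Six2-only cells and 4 cells with neither factor, including cell 27.

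Receptors were added to this next. A RAR was detected in 31 cells (63.3%), and 25 of these also had Aldh1a2, against 19.6 if independent. The other 6, cells 1, 5, 20, 24, 39 and 45, held a receptor without detected Aldh1a2. Of the 49 cells, 18 had no RAR at 1 RPKM or more, 17 had 1, 12 had 2 and 2 (cells 35 and 37) had all 3. Those without a detected RAR cannot be taken as lacking one, since 22 of the 49 cells held a trace of Rarb below 1 RPKM. Aldh1a2 and Rarb were found together in 20 cells against 15.2, with a Spearman correlation of 0.45, and Crabp1 and Rarb in 18 against 14.2, with 0.39. Within classes the correlation of Aldh1a2 with Rarb was 0.57 in the 18 Six2-only cells, 0.12 in the 15 Foxd1-only cells, 0.53 in the 9 cells with both factors and 0.02 in the 7 with neither. That of Crabp1 with Rarb was -0.05, -0.30, 0.49 and 0.81 in the same order. The values varied between classes of few cells, and their differences were not tested.

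Aldh1a2, Crabp1 and Rarb were all detected in 17 cells, of which 9 were Foxd1-only, 6 had both factors, 1 was Six2-only and 1 had neither. All 10 cells with Rarg had Crabp1, against 5.92 if independent, and 8 of them had Rarb, against 4.90. Rxrb went the other way, with Aldh1a2 in 4 cells against 7.59 and with Rarg in 0 cells against 2.45. Leaving out Crabp2, which every cell held, 13 of the 21 pairs of these genes were shared by more cells than independence gives. Among all pairs of genes detected in 5 to 44 cells, 58.1% were, so the number of pairs alone does not set these genes apart. All these pairs share the same libraries. The Spearman correlation with genes detected per cell was 0.32 for Aldh1a2, 0.28 for Crabp1 and 0.27 for Rarb, and with relative depth it was -0.02, -0.05 and -0.32. Their part in the pairs was not tested.

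A RAR and an RXR were detected in the same cell in 9 of 49 (18.4%, 8.76 to 32.0%), against 10.1 if independent, and 8 of these 9 held Rarb. An RXR was detected in 16 cells (32.7%) and a RAR in 31, with 2 RXR genes pooled against 3 RAR genes. Singly, Rxrb was detected in 12 cells and Rxra in 5, against 24 for Rarb, 13 for Rara and 10 for Rarg. All 3 roles, that is Aldh1a2, a Crabp gene and a RAR with an RXR, met in 5 cells (10.2%, 3.40 to 22.2%): cells 21 and 31 with both factors, the Foxd1-only cell 30, the Six2-only cell 6 and cell 38 with neither. No receptor was detected in 11 cells, of which 6 were Six2-only. The number of the 8 genes detected per cell had a median of 5 in cells with both factors, 4 in Foxd1-only and 3 in each of the other classes. The combined shares rest on receptors near the limit of detection: at 0.1 RPKM a RAR and an RXR met in 51.0% of cells and all 3 roles in 42.9%.

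**Figure D4:**
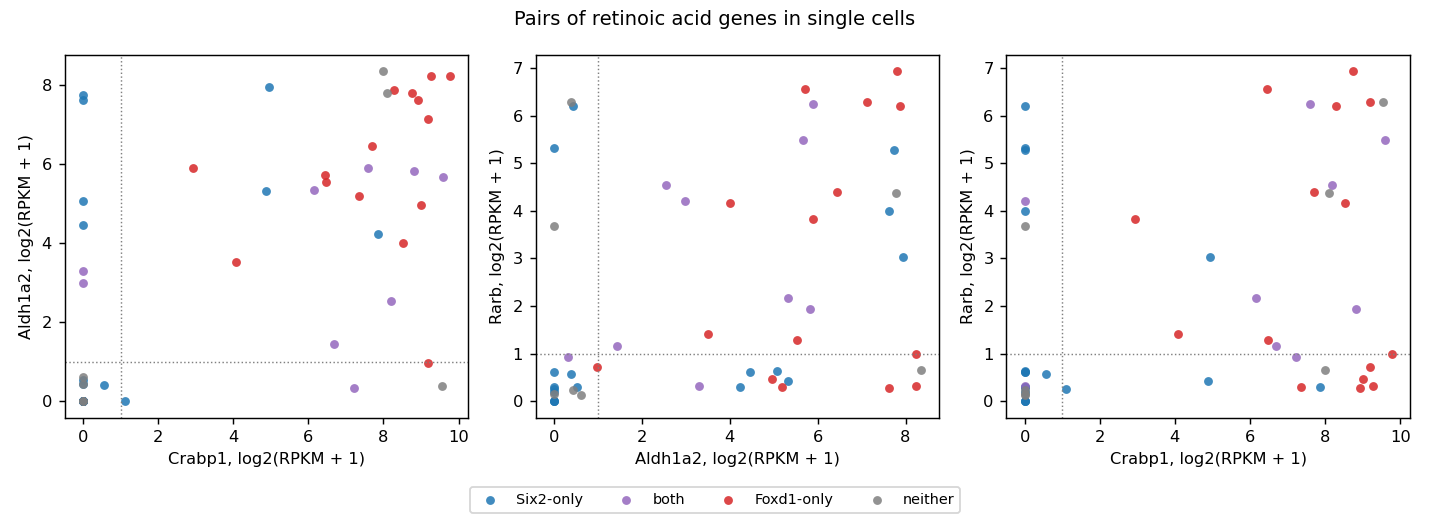
Levels of 3 pairs of genes, as log2(RPKM + 1) on both axes, with 1 point per cell coloured by Six2 and Foxd1 status and dotted lines at 1 RPKM. Aldh1a2 and Crabp1 are both above the lines in 25 cells, 14 of them Foxd1-only; cells with Aldh1a2 or Crabp1 above the line include cells with Rarb below and above it.

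Other genes of retinoid metabolism were examined from fixed lists, each counted in full. In the list of retinol entry and storage, 4 of 9 genes were in the table and 3 were detected in at least 5 cells. Of these Stra6, the membrane receptor for the retinol carrier, was higher in Foxd1-only cells by 1.13, and it was detected in 9 of 15 of them and 5 of 18 Six2-only cells. Dgat1, which can esterify retinol, was in 25 cells with a difference of 0.70. The other 5 genes, Rbp2, Rbp4, Lrat, Bcmo1 and Bco2, were not analysed here. The transcript of the import receptor was therefore seen in 23 of the 49 cells.

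In the list of oxidation and reduction, 8 of 16 genes were counted, of which 2 were higher by 1 or more in Foxd1-only cells, 1 in Six2-only cells and 5 in neither, beside 9.88% and 11.1% of all genes. Rdh10, which makes the substrate of Aldh1a2, was detected in 38 cells, 15 of 18 Six2-only and 10 of 15 Foxd1-only, with a difference of -0.93. Dhrs3, which reduces retinaldehyde back to retinol and is induced by retinoic acid, was detected in 47 cells. Its level ran from 0.366 through 249 to 1067 RPKM in Six2-only cells and from 148 through 638 to 1556 RPKM in Foxd1-only cells, a difference in mean log2(RPKM + 1) of 2.43. Adh5, an alcohol dehydrogenase of broad expression, was in 47 cells and differed by -1.35. The alcohol dehydrogenase Adh1, in 6 cells and none of them Six2-only, differed by 1.09. Rdh13, Dhrs4, Rdh11 and Rdh14 were detected in 45, 22, 11 and 11 cells, with differences of 0.03, 0.46, -0.37 and -0.96. The other retinaldehyde dehydrogenases were rare: Aldh1a1 was detected in 1 cell, cell 25 at 34.0 RPKM, and Aldh1a3 in 3 cells, the highest again cell 25 at 80.2 RPKM. That cell carried ureteric bud markers beside stromal ones. Outside it Aldh1a2 was the only gene of the 3 with more than scattered detection.

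Of the breakdown enzymes, Cyp26b1 was detected in 2 cells, at most at 29.9 RPKM in cell 27, and Cyp26a1 and Cyp26c1 were not analysed here. Fabp5, a fatty acid-binding protein that can also bind retinoic acid, was in 41 cells, with medians of 173 RPKM in Six2-only and 89.3 RPKM in Foxd1-only cells and a difference of -2.11. It was the only 1 of 3 genes counted in the list of other carriers and receptors to pass 1 in either direction. Rxrg, in the same list, was not analysed here.

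Coregulators, through which the receptor pairs repress or activate, were mostly broad. All 10 were in the table and 2 differed by 1 or more, a share close to the 21.0% of all genes that did so in either direction. The 2 were Nrip1, a ligand-dependent corepressor that was higher in Foxd1-only cells by 1.35, and the coactivator Ncoa3, higher by 1.16. The corepressor Ncor1 was in 45 cells with a difference of 0.03, the Mediator subunit Med1 in 48 with -0.31, and the acetyltransferases Crebbp and Ep300 in 43 and 30 with 0.75 and 0.05. The coactivators Ncoa2 and Ncoa6 were in 27 and 23 cells, with -0.46 and -0.40.

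In the list of genes known to respond to retinoic acid, 15 of 21 were counted: 8 were higher by 1 or more in Foxd1-only cells, 1 in Six2-only cells and 6 in neither, with a median of 1.13. Over all genes these shares were 9.88% and 11.1%, with a median of -0.04. Rarb, Crabp2, Stra6 and Dhrs3 are 4 of the 8. The others were the orphan nuclear receptor Nr2f1, with medians of 69.3 RPKM in Foxd1-only and 5.12 RPKM in Six2-only cells and a difference of 3.29, the homeobox genes Meis1 and Meis2, with 1.53 and 1.13, and Ecm1, a secreted matrix protein, with 2.35. Ecm1 and Meis1 are also on the list of stromal markers, and Ecm1 was found in 0 of 18 Six2-only and 8 of 15 Foxd1-only cells. All 15 cells with Ecm1 held Crabp1, against 8.88 if independent. Hoxb1 was the exception in direction: it was detected in 9 Six2-only cells, 5 with both factors and no Foxd1-only cell, a difference of -2.57. Nr2f2, Hoxd4, Hoxb4 and Hoxb5 were in 49, 22, 15 and 28 cells and differed by 0.27, 0.20, 0.07 and -0.55. Tgm2 was not analysed here.

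Over all lists with the 8 genes left out, 34 genes were counted, 9 higher in Foxd1-only cells, 3 higher in Six2-only cells and 22 in neither, with a median difference of 0.14, beside 9.88%, 11.1% and -0.04 over all genes. The lists overlap with the class they are compared across, since Foxd1-only cells held more stromal markers, and the part of that difference in these counts was not tested.

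The genes whose levels ran most like each of the 8 were named by Spearman correlation over the 49 cells, among 8420 genes detected in at least 10 cells, with up to 5 named for each. The names depend on the measure: with Pearson's correlation in its place, 3 of the 5 closest genes were shared for Crabp1, 2 for Aldh1a2, 1 each for Rara, Rarb and Rxrb, and 0 for Crabp2 and Rarg. Crabp1 ran most like Nfib, a transcription factor, at 0.80, and Lpar1, a lysophosphatidic acid receptor, at 0.79. The calcium-binding protein S100a11 was at 0.78 and the collagen Col1a1 at 0.76. Nfib, Lpar1 and Col1a1 were each in all 15 Foxd1-only cells and in 5, 4 and 3 of the 18 Six2-only cells. Crabp1 thus shared its pattern with genes that divide the same classes.

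For Aldh1a2 the closest was the tubulin Tuba1a at 0.62, detected in every cell, followed by Crabp1 itself at 0.58, Col1a1 and the collagen Col11a1 at 0.57, and Lpar1 at 0.56. Rarb ran most like Fign, an AAA ATPase, at 0.64, followed by Reep5, Lgals1, Fat4 and Tfg, each at 0.53. Fat4, an atypical cadherin, is on the list of stromal markers. Crabp2 reached 0.56 with the ferritin gene Ftl1, which has near copies in the genome, then came Nnat, Nek6, Rbm15b and Zkscan4, of which the last was at 0.52. Rarg, Rara and Rxrb were at 0 in 34, 25 and 33 cells, so their correlations rest largely on ties. The highest were 0.58 with Cdr2l, 0.56 with Higd2a and 0.54 with Tsga14. Rxra, in 5 cells, was left out. All these points share libraries and depth, and the values describe these cells.

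The cells were also divided by Crym, whose transgene marked the tissue. At 10 RPKM or more of Crym (30 cells) Crabp1 was detected in 13 cells with a median of 0, and below 10 RPKM (19 cells) in 16 with a median of 313 RPKM. Aldh1a2 was detected in 17 of the 30 and 14 of the 19 cells, with medians of 5.87 and 58.3 RPKM. The detected shares of Crabp1 and of Aldh1a2 lay closer together than those in Six2-only and Foxd1-only cells. Rarb was detected in 13 and 11 cells, with medians of 0.544 and 11.8 RPKM, Rarg in 3 and 7 and Rxra in 2 and 3. Rara was detected in 9 and 4 and Rxrb in 8 and 4, slightly larger shares at 10 RPKM or more of Crym. Crabp2 had medians of 236 and 468 RPKM, both with every cell detected.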

How the data were processed

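Single cells were captured on a microfluidic Fluidigm C1, their RNA was amplified with SMARTer chemistry and libraries were tagmented with Nextera XT, per the labels' protocols. This chemistry does not keep the strand of a read. The submitters' processing notes name TopHat 1.4.1, DESeq and mm9, the mouse build, without saying what each did. Which program counted reads, and over which gene models, was not stated in those notes or the labels. The authors deposited RPKM, and their table holds the 13093 genes above 3 RPKM in at least 1 cell, which truncates rare transcripts. Columns were tied to cells by their number, and 0 per-cell columns were unused. RPKM carry no read totals, so relative depth was estimated from the spacing of values below 0.5 RPKM in cell 1 against those below 100 RPKM in each other cell. The code for that estimate, the differences and the correlations was run on simulated data. For the correlations the simulation held a scaled copy of a gene, so it checks the code only. No 2 cells held identical values.

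Detection was set at 1 RPKM. Differences are of mean log2(RPKM + 1), pseudocount 1, which understates differences of low genes. A limit of 1 was used over genes detected in at least 5 cells, with no p-value because the cells are 1 sample. Expected overlaps multiply the 2 detected shares. Shares of 0 are given with an upper limit of 3 cells. The genes named are the 8, the list genes detected in at least 10 cells and the 5 closest by correlation for each. Adh1, Aldh1a1, Aldh1a3, Cyp26b1 and Ret, in fewer cells, were named after their values were seen. Some genes that this rule takes are counted in their lists but not reported here by name. The genes and lists were chosen with earlier results of these data known. Alternatives were other detection limits, pseudocounts, class limits, no filter, Pearson's correlation and genes in at least 5 cells for the closest genes. Cells 3 and 7 (shallow), or cells 25 and 27 (with markers of other cell types), were also left out. Python 3.11.15, numpy 2.4.6, pandas 2.3.3, scipy 1.17.1 and matplotlib 3.10.9 were used.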

Additional observations from a re-analysis of the deposited data

How the results depend on the processing

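At a detection limit of 0.1 RPKM in place of 1, Aldh1a2 was found in 79.6% of cells, a RAR with an RXR in 51.0% and all 3 roles in 42.9%. Rarb was then found in 91.8%, Rara in 46.9% and Rxra in 28.6%. At 5 RPKM Rarb was found in 38.8%, Rxrb in 14.3%, Rara in 12.2% and Rarg in 6.12%. The order of the receptors by share was the same at 0.1 and 1 RPKM. At 5 RPKM only Rara and Rxrb changed places. The share of all genes past a difference of 1 in either direction was 21.0%, and it became 40.0% with a pseudocount of 0.1 and 3.70% with one of 10. Of the 8 genes, 6 passed with a pseudocount of 0.1, when Rarg (1.89) and Rxrb (-1.18) were added, and 3 with one of 10, when Rarb (0.65) was lost. Of the 48 recomputed differences of the 8 genes, 44 kept both sign and side of the limit and 1 changed sign, that of Rara, from -0.04 to 0.02 without cells 3 and 7. Of 21 recomputed sets of closest genes, 10 moved, 7 of them with Pearson's correlation. Classes drawn at 0.1 RPKM held 12 Six2-only, 16 Foxd1-only, 20 cells with both factors and 1 with neither, so the class of a cell with a trace depends on this limit. No paired analysis was possible because the cells form 1 group. There were no read totals, so depth was read from the smallest steps. In a cell of median depth 1 RPKM was about 5.91 steps of Rarg, 7.99 of Rara and 9.70 of Rxra. It was about 4.17 steps of Aldh1a2 and 1.36 of Crabp1. Receptor traces below 1 RPKM therefore rest on few steps.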
